A study of Rattus norvegicus with 4 samples.

Results

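The S100 proteins are a family of small calcium-binding proteins, and 8 of their genes (*S100b*, *S100a1*, *S100a4*, *S100a6*, *S100a10*, *S100a11*, *S100a13* and *S100g*) were followed here in dispersed cells of the rat anterior pituitary by single-cell RNA sequencing. The 8 genes were taken by their symbols from the 30058 genes of the count matrix, which holds 18 S100 genes in all. Cells came from postpubertal Sprague Dawley rats, females of postnatal day 44 in diestrus and males of postnatal day 59, with 4 pituitaries pooled per sex and each pool loaded in 2 lanes of the instrument. The lanes carry no replicate name in the matrix and are called here by their cells, the female lanes with 1868 and 1861 cells and the male lanes with 2047 and 2085 cells, their sex being given by the cell numbers the study lists for each sex. Since each sex is 1 pool of animals and the pools also differ in age, sex, age and pool cannot be told apart, and a p-value between the sexes measures the spread between lanes, which is technical. The 4 lanes held 18955509 to 24048021 unique molecular identifiers (UMIs, each counting 1 captured RNA molecule), and *Eif2s3y*, a gene of the Y chromosome, had 0 and 1 UMIs in the female lanes and 2038 and 2100 in the male lanes. Across lanes, 30 barcodes occurred in more than 1 lane. After filtering, 6846 cells were left: 2316 folliculostellate cells (FSC), 1885 somatotrophs (S), 793 corticotrophs (C), 551 leukocytes (Le), 482 lactotrophs (L), 361 erythrocytes (E), 237 gonadotrophs (G), 133 endothelial cells (EC) and 88 thyrotrophs (T).

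S100 proteins hold calcium through EF-hand motifs, and most change shape on binding it and then attach to partner proteins such as annexins, cytoskeletal proteins and enzymes. In the anterior pituitary, S100B is the classical marker of FSC, the non-endocrine cells that form a network between the hormone-producing cells. S100G, also called calbindin-D9k, is a vitamin D- and oestrogen-regulated calcium buffer known from intestine and uterus. S100A10 differs from the others in that it does not bind calcium and works in a complex with annexin A2. S100A4 and S100A6 are known from motile and proliferating cells, S100A11 as a partner of annexin A1, S100A13 for its part in the release of fibroblast growth factor 1, and S100A1 as a regulator of calcium handling in muscle.

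In the RefSeq rat genes (GRCr8), *S100b* lay on chromosome 20 and *S100g* on the X chromosome, and the other members lay on chromosome 2, where *S100a1* was next to *S100a13* and *S100a11* next to *S100a10*. A promoter of 300 bases, from 250 bases before to 50 after the start of the gene, was at hand for *S100b*, *S100a4*, *S100a6*, *S100a11* and *S100a13*. As examples, those of *S100b*, *S100a6* and *S100a11*, which were called higher in FSC below, and of *S100a4*, which was called higher in Le and FSC, are printed 5′ to 3′, with the matches of a motif search on either strand in capitals. The TATA box was spelled TATAAA, and the CCAAT box by the letters of its name. The GC box was spelled GGGCGG.
S100b, chr20:12381032-12381331, strand -: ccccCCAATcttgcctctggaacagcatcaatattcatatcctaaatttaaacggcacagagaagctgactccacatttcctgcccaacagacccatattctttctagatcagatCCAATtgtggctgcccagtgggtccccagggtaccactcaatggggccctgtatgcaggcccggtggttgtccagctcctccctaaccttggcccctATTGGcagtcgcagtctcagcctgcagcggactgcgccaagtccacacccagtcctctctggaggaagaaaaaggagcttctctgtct
S100a6, chr2:178398287-178398586, strand +: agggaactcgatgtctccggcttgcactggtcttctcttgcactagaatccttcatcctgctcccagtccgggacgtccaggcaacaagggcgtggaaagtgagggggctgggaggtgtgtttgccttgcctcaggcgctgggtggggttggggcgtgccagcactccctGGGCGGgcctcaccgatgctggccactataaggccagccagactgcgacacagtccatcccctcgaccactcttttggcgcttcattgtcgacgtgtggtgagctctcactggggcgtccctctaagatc
S100a11, chr2:181874882-181875181, strand +: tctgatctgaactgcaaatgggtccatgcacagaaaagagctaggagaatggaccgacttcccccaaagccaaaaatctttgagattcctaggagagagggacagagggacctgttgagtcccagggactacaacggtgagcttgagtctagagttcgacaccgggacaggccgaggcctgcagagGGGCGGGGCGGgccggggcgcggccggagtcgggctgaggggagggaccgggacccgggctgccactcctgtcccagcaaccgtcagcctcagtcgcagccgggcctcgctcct
S100a4, chr2:178388279-178388578, strand +: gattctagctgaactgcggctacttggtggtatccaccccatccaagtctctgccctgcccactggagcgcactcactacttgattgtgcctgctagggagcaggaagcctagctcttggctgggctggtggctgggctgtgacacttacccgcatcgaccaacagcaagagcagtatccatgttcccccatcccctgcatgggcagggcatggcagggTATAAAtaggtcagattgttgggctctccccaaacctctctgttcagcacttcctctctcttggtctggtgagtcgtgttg
The *S100b* promoter had 3 CCAAT matches, the first at -246 and the last at -38 from the start, and no match to TATAAA or GGGCGG. A further match, to ACAAT, the core of the motif bound by SOX factors, lay at -132 and overlapped a CCAAT match. The *S100a6* promoter had 1 GGGCGG match at -80, the *S100a11* promoter had GGGCGG matches at -64 and -59 that overlapped each other, and the *S100a4* promoter had TATAAA at -31. The SOX core was also matched at -167 and -17 in the *S100a4* promoter and at 5 in that of *S100a6*. Of the 33469 promoters of the same length in the table, 37.5% held a CCAAT box on either strand, 33.7% the SOX core, 33.1% a GC box and 14.2% a TATA box. The promoters of *S100b*, *S100a6*, *S100a11* and *S100a4* were 54% to 63% G and C, against a median of 51.7% over all promoters. A match in letters is a description of the window only.

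FSC stood apart from the other cell types in this family. Each type was compared with the mean of the others by edgeR's quasi-likelihood test on UMI sums per type and sex, and a gene was called at a Benjamini-Hochberg adjusted p, over all genes tested, below 0.001. In FSC, 7 of the 8 members were called higher, while 16.5% of all genes tested were called higher in FSC. In Le 3 members were called higher (17.9% of all genes), in EC 2 (12.2%), in L 2 (6.3%) and in S 1 (9.06%). None was called higher in C, G or T, where 8.91%, 6.47% and 3.25% of all genes were. Calls of a lower level fell mostly on hormone-producing cells. Each type was set against the mean of the others, which holds the types where a member is high. Such calls are therefore not independent of the calls of a higher level. In C 5 of the 8 members were lower (2.63% of all genes), namely *S100g* (-3.49), *S100a6* (-2.23), *S100a10* (-2.02), *S100a1* (-1.81) and *S100a13* (-1.23), on the log2 scale. In S (2.63% of all genes) *S100a6* (-1.43) and *S100a13* (-1.16) were lower, in G (1.12%) *S100a6* (-2.43) and *S100a13* (-1.25), in T (0.426%) *S100a10* (-3.78), and in FSC (3.69%) *S100g* (-3.34). No member was called lower in Le, EC or L, where 9.56%, 5.58% and 1.35% of all genes were. Of these 11 calls, those of *S100g* in FSC and C, of *S100a6* in G and S, of *S100a13* in G and of *S100a1* in C were each lost under at least 1 alternative. In the direct contrast of S with C, *S100g* passed (5.16, adjusted p = 2.12e-05, edgeR). There *S100a10* (1.07, adjusted p = 0.0356), *S100a6* (0.70, adjusted p = 0.161), *S100a1* (0.45, adjusted p = 0.379) and *S100a13* (0.06, adjusted p = 0.865, edgeR) did not. Since *S100b* was one of the genes that define FSC and posterior pituitary cells, its levels, shares and tests by type come from cells typed without it. Its values in the FSC clusters, the likeness of profiles and the cells taken out, and others where so stated, are from typing with it. Typing without it gave 2328 FSC and 16.5% of genes called higher in them. The other FSC genes of the rule still typed these cells. For some types the paper widened its marker set by comparing types in these same data, so this typing may not be independent of *S100b*. Levels are given as CPM, the gene's UMIs scaled to a common total over the type in a lane. They count the 3′ ends of transcripts and are compared between types, not between genes.

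**Figure D1:**
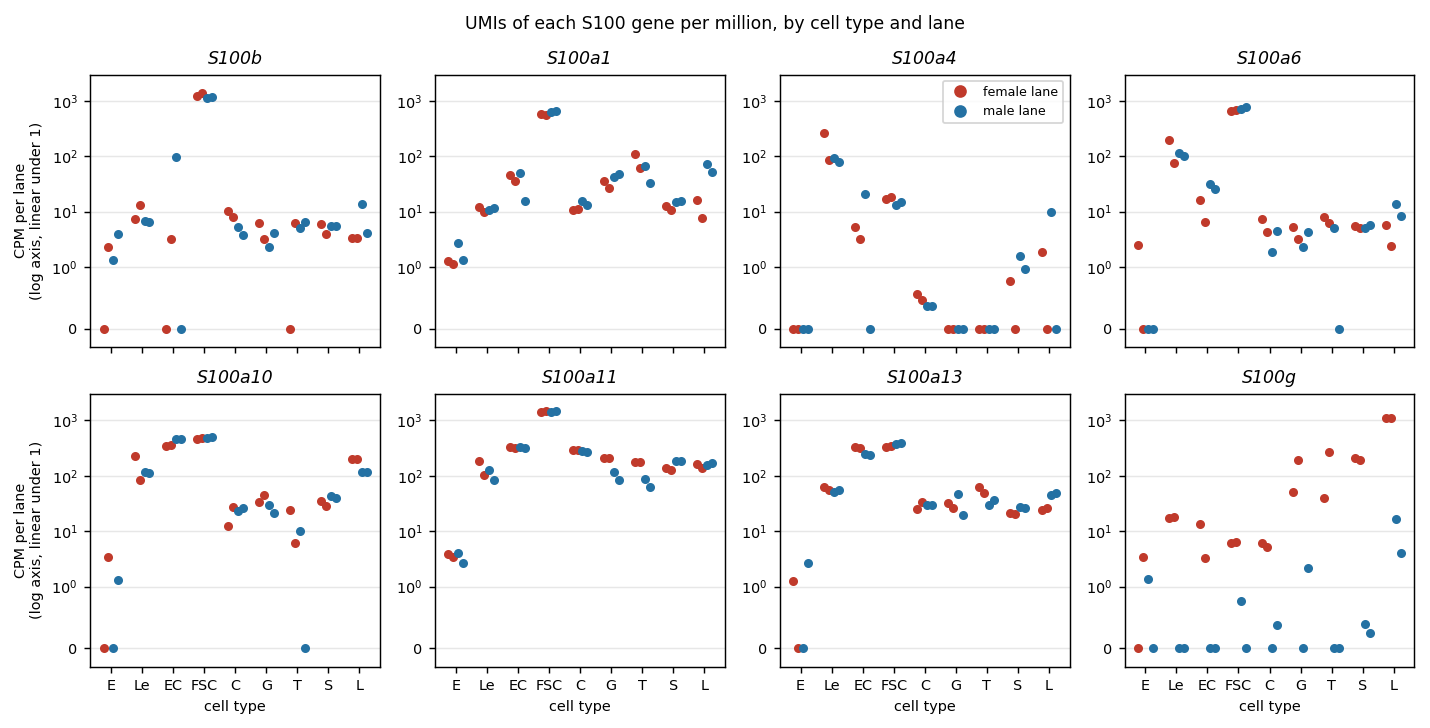
CPM (log axis, linear under 1) of each S100 gene in each of 9 cell types, with 1 point per lane, female lanes in red and male lanes in blue. *S100b*, *S100a1* and *S100a6* were highest in FSC in every lane, *S100a4* in Le, and *S100g* was higher in female than in male lanes of L and S.

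*S100b* was at 1226 and 1397 CPM in FSC of the female lanes and at 1124 and 1183 in FSC of the male lanes. These 4 values overlapped with no other type. In EC the lanes were at 0, 3.26, 96.7 and 0 CPM, the 28 UMIs of the male lane with 2047 cells setting that type's mean of 25.0 ± 47.8 (SD, n = 4 lanes), and in the 7 remaining types the mean was at most 8.36 CPM. The log2 fold change of FSC against the other types was 7.16 (SE 0.29, adjusted p = 1.89e-11, edgeR). By a threshold set on the gene's own distribution, 81.4% of FSC expressed *S100b* (1894 of 2328, 95% exact binomial interval 79.7% to 82.9%), and the lanes ranged from 79.6% to 82.3%. Conversely, 99.7% of the 1900 cells that expressed *S100b* were FSC. This count holds only the filtered cells of the types compared. Cells that met the rules of several types, doublets, melanotrophs, pericytes and posterior pituitary cells had been left out. Posterior pituitary cells were picked here without *S100b*, which gave 39 cells, against 59 with it. Cells no longer picked could enter the types compared. At least 1 *S100b* UMI was seen in 91.4% of FSC with a median depth of 6916 UMIs, in 6.61% of S with a median of 13665, and in 1.66% of E with a median of 8246, a type that should lack the gene. Intervals here and below cover counting error only.

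*S100a6*, whose protein binds the calcyclin-binding protein, had the next steepest rise in FSC. It was at 672, 689, 705 and 784 CPM in FSC of the 4 lanes, at 75.8 to 194 in Le, at 6.52 to 31.9 in EC and at most 13.7 in the hormone-producing cells. FSC were above the other 8 types in every lane, the difference being 5.97 on the log2 scale (SE 0.17, adjusted p = 2.94e-13, edgeR). The gene was expressed in 70.3% of FSC. *S100a1* was at 574, 565, 626 and 661 CPM in FSC, and T came next at 68.2 ± 32.8 CPM (SD, n = 4), a range that overlapped with that of G. Its log2 fold change in FSC was 4.36 (SE 0.18, adjusted p = 2.39e-11, edgeR), and 88.9% of FSC expressed it (2060 of 2316).

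*S100a11* was present in each nucleated type and rose further in FSC. Its FSC values of 1431, 1491, 1441 and 1501 CPM lay within a narrow band, whereas EC had 324 ± 9.96 and C 284 ± 11.9 CPM (SD, n = 4), and S, L, G, T and Le had means of 125 to 158. The log2 fold change in FSC was 2.79 (SE 0.18, adjusted p = 4.83e-09, edgeR). The share expressing was 91.9% in FSC, 30.8% in EC, 30.4% in C and 0 of 361 in E, where 3.05% of cells held at least 1 UMI. RefSeq lists 7 further *S100a11*-like genes or pseudogenes in the rat and 1 for *S100a10*, so that the split of reads between a member and its copies is uncertain for these 2 genes. The 3′ ends of genes were lengthened without regard to strand before counting, and for members next to each other on chromosome 2 the effect of this on their counts was not tested.

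*S100a10* and *S100a13* were high in both FSC and EC. *S100a10* was at 455, 486, 479 and 498 CPM in FSC and at 347, 355, 461 and 463 in EC, and the lane ranges overlapped. *S100a13* was at 328, 353, 379 and 384 CPM in FSC and at 337, 316, 252 and 242 in EC, which overlapped as well. Against the other types, *S100a10* rose by 2.77 on the log2 scale in FSC (SE 0.22, adjusted p = 4.02e-08) and 2.35 in EC (SE 0.24, adjusted p = 1.15e-06, edgeR). *S100a13* rose by 2.67 in FSC (SE 0.13, adjusted p = 1.04e-10) and 2.15 in EC (SE 0.15, adjusted p = 8.8e-09, edgeR). In the direct contrast of FSC with EC, in which 13.4% of all genes were called in either direction, 4 members were called, each higher in FSC. These were *S100b* (log2 fold change 5.71, adjusted p = 3.13e-06), *S100a6* (5.33, 1.80e-08), *S100a1* (4.08, 6.61e-07) and *S100a11* (2.32, 3.74e-05, edgeR). The contrast did not pass the threshold for *S100a10* (0.37, SE 0.33, adjusted p = 0.420) or *S100a13* (0.46, SE 0.20, adjusted p = 0.0928, edgeR), which does not show that their levels are equal.

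*S100a10* was expressed in 80.0% of FSC and 72.9% of EC, and *S100a13* in 82.6% and 80.5%. Of the 6 members *S100b*, *S100a1*, *S100a6*, *S100a10*, *S100a11* and *S100a13*, the median FSC expressed 5, and 35.3% of FSC (822 of 2328) expressed all 6. The median EC expressed 2, the median L 1 (0 in females and 1 in males), and the median cell of the remaining types 0. Thresholds are on depth-scaled counts, so the UMIs needed to pass differ with a cell's depth.

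**Figure D2:**
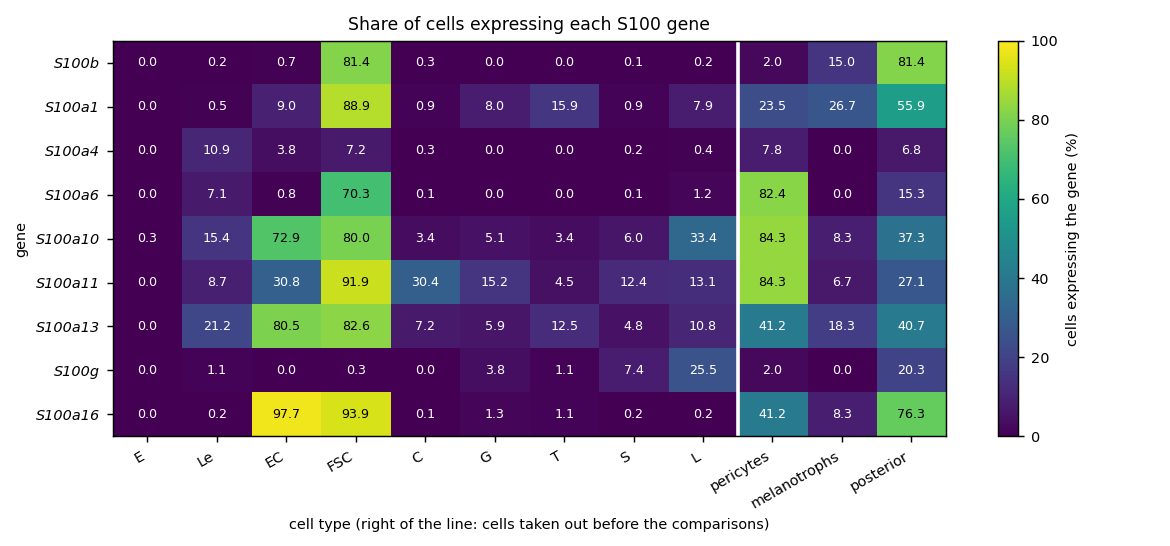
Percentage of cells of each type (columns) that expressed each S100 gene (rows), over all lanes, with the value printed in each field. Columns right of the line are cells taken out before the comparisons and not filtered for depth, mitochondrial share or doublets. *S100a16*, an S100 gene outside the 8, is the last row. The FSC column holds shares above 70% for 6 of the 8 members, and EC share the high values of *S100a10* and *S100a13*.

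Among 10 other S100 genes, *S100a16* alone had enough UMIs to be tested between the types. It was at 793 ± 11.4 CPM in FSC and 922 ± 85.2 in EC (SD, n = 4) and at most 13.1 in the mean of any other type. Its log2 fold change was 5.42 in FSC (adjusted p = 1.03e-12) and 5.49 in EC (adjusted p = 1.21e-12, edgeR). *S100a8* and *S100a9*, whose proteins form calprotectin of neutrophils, had 1 and 4 UMIs in all cells.

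When all cells were clustered without any S100 gene, 2 large clusters were led by FSC. The cluster of 1585 cells had more *Gpha2* (3826 against 221 CPM), encoding a glycoprotein hormone subunit, and more *Aldh1a2* (185 against 90.5), encoding a retinoic acid synthesising enzyme. The cluster of 678 cells had more *Krt7* (29.7 against 0.747), a keratin of simple epithelia, and *Cldn4* (36.8 against 1.49), a tight junction gene. Clusters of the same cells are given as a description, and the cells had been typed with *S100b* among the FSC genes. *S100b* was at 1622 ± 133 CPM in the first cluster and 496 ± 65.1 in the second (SD, n = 4 lanes), and was expressed in 93.9% and 51.9% of their cells. *S100a11* went the other way, with 1102 ± 35.9 and 2063 ± 95.7 CPM. *S100a4*, though low, was at 22.5 ± 4.06 and 3.69 ± 2.24 CPM, on the side of *S100b*. For these genes the lane ranges of the clusters did not overlap. *S100a6* (658 ± 56.1 and 850 ± 93.6 CPM), *S100a1* (614 and 632), *S100a10* (457 and 502) and *S100a13* (386 and 334) differed less between the clusters.

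**Figure D3:**
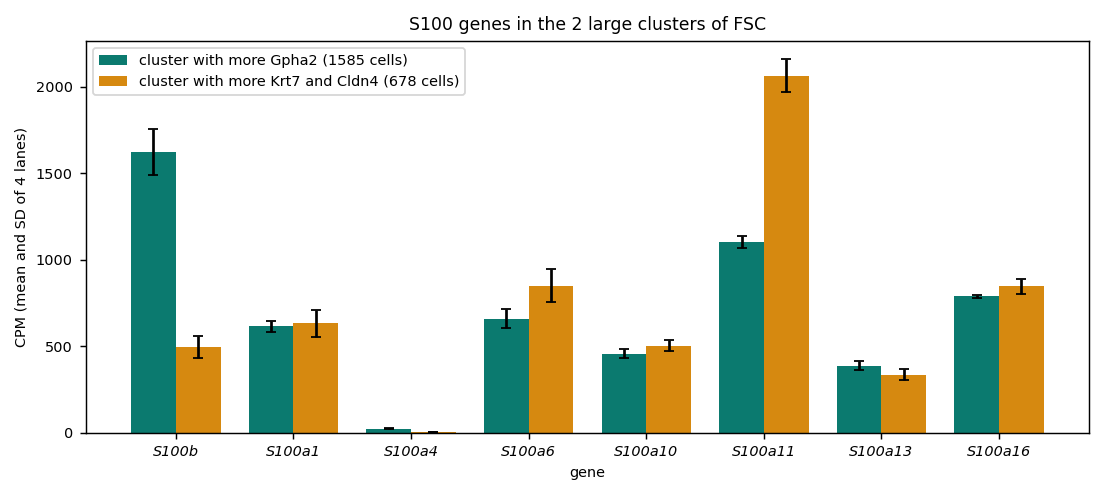
Mean CPM and SD over 4 lanes of S100 genes in the 2 large FSC clusters, 1585 cells in green and 678 in orange. *S100b* was at 1622 against 496 CPM and *S100a11* at 1102 against 2063, while *S100a1* stood at 614 against 632.

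The same opposition was seen when FSC were split by *S100b* itself. These are largely the same cells as in the clusters, so the split is no independent observation. The 434 FSC that did not express it had 1980 CPM of *S100a11*, against 1335 in the 1894 that did, and were higher in each of the 4 lanes. They had 608 CPM of *Gpha2* against 2918, and a median depth of 6295 UMIs against 7062. *Fxyd1*, *Gstm2* and *Capn6*, the genes that typed these cells, are no check of them.

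Among the 9 types compared, *S100a4* was highest in Le. It was at 262 CPM in Le of the female lane with 1868 cells, and at 86.6, 92.5 and 80.2 in the other lanes, so that 1 female lane stood above the rest. FSC followed with 16.6, 18.4, 13.1 and 14.7 CPM, and G, T and E were at 0 UMIs. The log2 fold change was 7.78 in Le (adjusted p = 4.64e-10) and 3.65 in FSC (SE 0.56, adjusted p = 1.16e-04, edgeR). These fitted values depend on how types at 0 are treated and are no measure of the fold. In the direct contrast, the log2 fold change of FSC against Le was -3.61 (adjusted p = 5.77e-06, edgeR). *S100a6* was also higher in Le than in the mean of the other types (3.71, adjusted p = 2.12e-10, edgeR), as was *S100a10* (1.34, SE 0.25, adjusted p = 3.38e-04, edgeR), for which the call was lost without the female lane with 1868 cells (1.09, adjusted p = 0.00353) and with scaling by library size alone (0.96, adjusted p = 0.00127).

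Within Le, these 3 genes and *S100a11* were high in a small group of cells. Of 551 Le, 493 expressed at least 2 of the complement genes *C1qa*, *C1qb* and *C1qc*, a rule for macrophages, and 58 did not. The 58 cells had 975 ± 486 CPM of *S100a4* (SD, n = 4 lanes), against 21.5 ± 18.0 in the 493. *S100a6* was at 1008 ± 110 against 12.2 ± 3.20 CPM, *S100a10* at 997 ± 267 against 28.2 ± 12.7, and *S100a11* at 659 ± 357 against 56.7 ± 18.5. *S100a10* was expressed in 57 of the 58 cells (98.3%), *S100a6* in 34 (58.6%), *S100a4* in 32 (55.2%) and *S100a11* in 27 (46.6%), and 5 cells held 171 of the 392 *S100a4* UMIs. *S100a13* did not follow, at 37.9 ± 19.0 against 58.0 ± 7.24 CPM, and its lane values overlapped. The 58 cells were mixed. *Nkg7*, a gene of natural killer and T cells, was expressed in 26 of them and the T cell gene *Cd3g* in 16, while *Lyz2*, a gene of myeloid cells, was expressed in 15 of them, at 3274 CPM over the 58 against 17291 in the 493. They held no UMI of the B cell genes *Cd79a* and *Cd79b*.

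**Figure D4:**
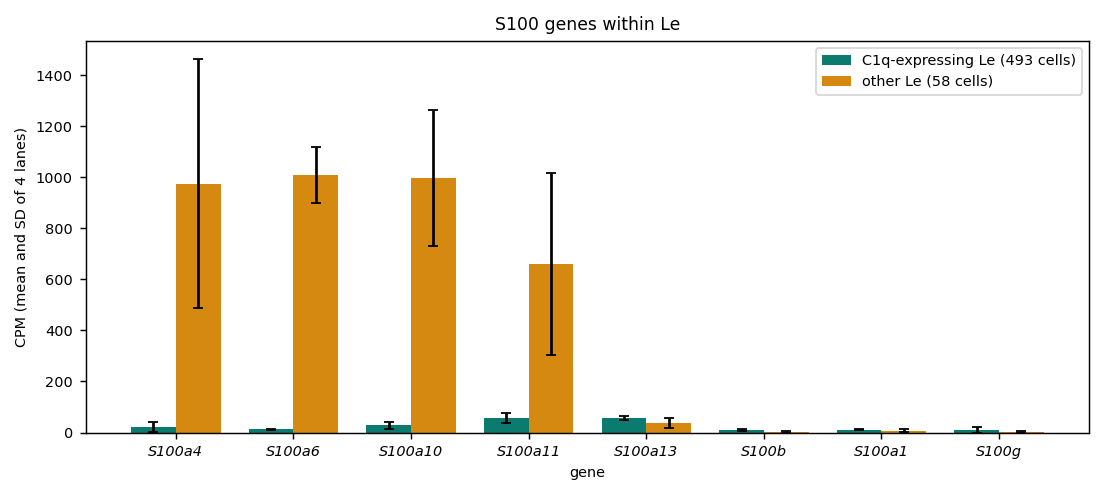
Mean CPM and SD over 4 lanes of the 8 members in Le, for 493 cells that expressed *C1q* genes (green) and 58 that did not (orange). *S100a4*, *S100a6*, *S100a10* and *S100a11* stood at 659 to 1008 CPM in the 58 cells and at 12.2 to 56.7 in the 493, and *S100a13* at 37.9 and 58.0.

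*S100g* differed from the rest of the family in its place and in its dependence on the pool. In L of the female lanes it was at 1128 and 1103 CPM, and in L of the male lanes at 16.5 and 4.12. In S it was at 212 and 192 CPM in the female lanes and at 0.395 and 0.243 in the male lanes. The sexes were compared within each type by edgeR's quasi-likelihood test on sums per lane. In L the log2 fold change of males against females was -7.35 (SE 0.15, adjusted p = 3.79e-30), and in S it was -9.29 (SE 0.16, adjusted p = 1.22e-40, edgeR). Females had 105 times the CPM of males in L (exact Poisson interval 69.1 to 167, from 4659 and 22 UMIs), and 638 times in S (273 to 1966, from 2132 and 5 UMIs). A single male L cell held 12 of the 22 UMIs. The intervals treat UMIs as independent and do not cover the spread between cells.

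Expressing cells were a part of each type. In females, 54.5% of L (122 of 224) and 15.98% of S (140 of 876) expressed *S100g*. In males, 1 of 258 L did (0.388%), and 0 of 1009 S passed the threshold, while 0.496% of male S held at least 1 UMI. Female L were deeper than male L, with medians of 18316 and 7214.5 UMIs per cell. After each cell was thinned to 2000 UMIs, at least 1 *S100g* UMI remained in 53.6% of female and 0.388% of male L, and in 14.4% of female S and 0 male S. Single cells reached 273 UMIs in female L and 153 in female S, and 54 and 48 L and 31 and 29 S of the female lanes had at least 10.

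*S100g* was also found in G and T. In G of the female lanes it was at 50.3 and 190 CPM, and at 0 and 2.14 in the male lanes, which gave -6.79 on the log2 scale (SE 1.15, adjusted p = 7.53e-04, edgeR) and a ratio of 108 (19.1 to 4272). A single female cell held 117 of the 228 UMIs, and the log2 value was -5.46 without the female lane with 1861 cells and -9.61 without the male lane with 2085 cells. In T the female lanes were at 40.1 and 271 CPM, the latter above both female lanes of S, and the male lanes at 0. Of the 49 UMIs of female T 1 cell held 42, and male T had 0, a level at least 39.8-fold higher when males are set at 3 UMIs. FSC had 54 UMIs in females and 4 in males, and C had 22 and 1. The calls in FSC (log2 fold change -3.98, adjusted p = 2.81e-04) and C (-4.63, adjusted p = 8.51e-04, edgeR) were each lost under several settings, such as DESeq2 in place of edgeR, and no female FSC or C held more than 2 *S100g* UMIs. *Prl*, the prolactin gene and a mark of L RNA, was beside it in these cells. In females there were 3.53 *S100g* UMIs per 1000 *Prl* UMIs in L, 4.71 in FSC, 4.87 in C, 2.95 in E, 8.42 in EC and 10.7 in Le, whereas G had 99.5, T 99.8 and S 142. The part of free RNA from L in the values of FSC, C and E was not tested.

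Between types, with both sexes in the fit, *S100g* was higher in L (log2 fold change 5.89, SE 0.29, adjusted p = 8.40e-10) and S (2.41, SE 0.31, adjusted p = 2.19e-05, edgeR), although these averages rest on female cells. DESeq2 gave 1.72 and an adjusted p of 0.0483 in S. In the contrast of L with S, in which 2.29% of all genes were called, *S100g* (3.04, SE 0.42, adjusted p = 2.11e-04) and *S100a10* (2.13, SE 0.34, adjusted p = 7.29e-04, edgeR) were both higher in L.

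Female cells with *S100g* also had more *Pvalb*, which encodes parvalbumin, another calcium buffer. In L, *Pvalb* was at 108 CPM in the 122 expressing cells and 8.37 in the 102 others, and in S at 132 in 140 cells and 21.1 in 736. *Esr1*, the oestrogen receptor, was at 45.2 against 26.3 CPM in L, and at 31.6 in both groups of S. *Pgr*, the progesterone receptor, was at 25.6 against 9.56 CPM in S and at 9.99 against 11.96 in L. *Prl* was lower in the *S100g*-expressing L (273081 against 380853 CPM), and *Gh1*, the growth hormone gene, in the *S100g*-expressing S (169821 against 303264). These are descriptions of 1 pool. Median depth differed in L, at 21470.5 UMIs in expressing cells and 15900 in the others, and was 11860.5 and 11522 in S.

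Apart from *S100g*, the members called between the sexes were *S100a1*, *S100a10* and *S100a11*, each in L, and *S100a11* also in G and S. In L 4 of the 6 members tested were called (16.5% of all genes), in S 2 of 7 (11.5%), in G 2 of 5 (4.36%), in FSC 1 of 8 (2.92%) and in C 1 of 7 (0.685%). None was called in Le, EC or T, where 0.314%, 0.814% and 1.53% of all genes were. Of these 10 calls, 5 were *S100g*.

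*S100a10* in L was at 204 and 199 CPM in the female lanes and at 117 and 116 in the male lanes. The log2 fold change was -1.44 (SE 0.11, adjusted p = 2.53e-13, edgeR), a wider gap than the CPM show, and -0.78 with libraries scaled by size alone (adjusted p = 3.05e-07). It was expressed by 42.4% of the L of females and 25.6% of those of males. *Anxa2*, which encodes the partner of S100A10, moved the opposite way in L and was 1.96 higher in males on the log2 scale (SE 0.21, adjusted p = 1.41e-09, edgeR). *S100a1* was higher in male L, at 15.98 and 7.81 CPM in the female and 71.4 and 51.5 in the male lanes (log2 fold change 1.71, SE 0.26, adjusted p = 2.16e-06, edgeR). Among L, 1 of 224 from females expressed it and 37 of 258 from males. The threshold is on depth-scaled counts, so it asked for more UMIs in female L (median depth 18316 UMIs) than in male L (7214.5). These 2 shares therefore cannot be compared free of depth. With cells thinned to 2000 UMIs the log2 fold change of *S100a1* was 1.10 and not called (adjusted p = 0.105). In L typed without it, *S100b*, a mark of FSC RNA, was at 3.28 and 3.37 CPM in the female lanes and at 13.7 and 4.12 in the male lanes. In the L of the *S100a1* values, typed with *S100b*, it was at 2.82 and 3.42 CPM and at 8.24 and 4.12. The part of FSC RNA in the *S100a1* difference was not tested.

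*S100a11* was called in 3 types with unlike directions. In G it was at 211 and 208 CPM in the female and 116 and 83.6 in the male lanes (log2 fold change -1.33, SE 0.18, adjusted p = 8.52e-05, edgeR). In S it was at 139 and 127 CPM in the female and 183 and 184 in the male lanes (0.41, SE 0.06, adjusted p = 1.44e-07, edgeR), and with thinned cells at 0.14, not called (adjusted p = 0.574). In L the CPM overlapped, at 161 and 140 in the female and 157 and 172 in the male lanes, while the scaled fit gave -0.53 (SE 0.11, adjusted p = 2.16e-04, edgeR). The sign in L turned to 0.13 (adjusted p = 0.319) when libraries were scaled by size alone, under which the median of all genes in L moved to 0.67 and genes called higher in males went from 465 of 1424 to 2368 of 2695. *Prl* took 316251 CPM of female and 179791 CPM of male L.

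In FSC no member other than *S100g* was called between the sexes. For *S100b* the log2 fold change in FSC was -0.22 (SE 0.05, adjusted p = 0.00658, edgeR), which did not pass the threshold, with female lanes at 1226 and 1397 CPM and male lanes at 1124 and 1183. The log2 fold changes of *S100a1*, *S100a6*, *S100a10*, *S100a11* and *S100a13* in FSC lay between -0.03 and 0.14, with SE of at most 0.05.

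**Figure D5:**
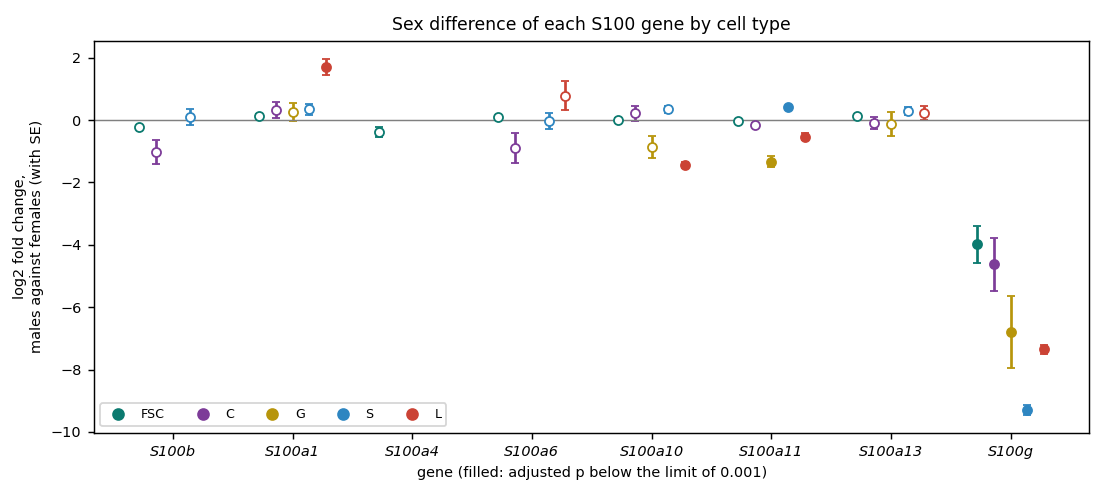
Log2 fold change of males against females, with SE, for each S100 gene in FSC, C, G, S and L, from edgeR on sums per lane; filled points passed the adjusted p limit of 0.001. *S100g* lay between -9.29 and -3.98 in the 5 types, and the other members between -1.44 and 1.71.

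A call in one type and none in another is no difference between types, so the sex difference in L was set against that in each of FSC, C, G, T and S by an interaction contrast. Of 40 contrasts of 8 members with 5 types, 6 were called, and all genes were called in 7.3%, 4.97%, 3.05%, 2.69% and 7.84% of cases for FSC, C, G, T and S. *S100a10* in L differed from FSC (log2 difference -1.43, SE 0.15, adjusted p = 2.85e-10), C (-1.64, SE 0.28, adjusted p = 1.23e-05) and S (-1.78, SE 0.19, adjusted p = 1.27e-10, edgeR). *S100a1* differed from FSC (1.60, SE 0.26, adjusted p = 3.22e-06) and S (1.39, SE 0.31, adjusted p = 6.54e-04, edgeR), and *S100a11* from S (-0.93, SE 0.14, adjusted p = 6.58e-07, edgeR). The *S100g* difference in L was not called against any of the 5 types, and the SE of that contrast was 1.10 or more.

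Partner and related genes were read from lists of the family's binding partners and regulators and of other EF-hand genes. In FSC, 8 of 22 partner genes tested were called higher (16.5% of all genes were) and 0 lower (3.69%). The median log2 fold change of the 22 was 0.61, against 0.12 over all genes. *Anxa1*, the partner of S100A11, was at 5.58 (adjusted p = 5.07e-11), the scaffold gene *Ahnak* at 4.85 (adjusted p = 1.33e-08), *Fgf1*, whose protein is carried by S100A13, at 3.92 (adjusted p = 4.62e-04), and the receptor gene *Tlr4* at 3.59 (adjusted p = 6.79e-07, edgeR). *Anxa2* was higher as well (1.84, adjusted p = 2.10e-05, edgeR), and *Cacybp*, for the calcyclin-binding protein, gave 0.00 (adjusted p = 1). Of 28 other EF-hand genes, 7 were higher and 1 lower in FSC. Those with the highest values were *Efhd1* (4.48), *Sparc* (4.30), *Calml4* (3.97) and *Ncs1* (3.02). For *Ncs1* the fitted values were no lower in C (3.165) and G (3.36), though it was not called there. Both *Ncs1* and *Fgf1* had 0 UMIs in Le and EC, so their fitted values are no measure of the fold. The same holds, here and below, for *Ahnak*, with 0 UMIs in T, and *Tlr4*, with 0 in L.

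In EC 4 of 22 partner genes were higher (12.2% of all genes were) and 0 lower. These were *Ahnak* (6.47), *Anxa1* (2.88), *Atp2b4* (2.82), a plasma membrane calcium pump, and *Anxa2* (1.91), the partner of S100A10. The EF-hand genes called in EC were *Sparc* (6.61), *Calu* (2.07), *Hpcal1* (1.63) and *Cib1* (1.59), 4 of 28. In Le 7 of 22 partner genes were higher (17.9% of all genes were) and 1 lower (9.56%). They were led by *Il1a*, which had 154 UMIs in female and 32 in male Le and at most 1 in any other type, *Tlr4* (5.42), *Anxa4* (2.33) and *Anxa1* (1.84). Of the EF-hand genes 4 were higher and 5 lower in Le, with *Efhd2* (4.92), *Rcn3* (-3.84), *Calml4* (-3.22) and *Cib1* (2.79) at the front.

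Among hormone-producing cells the receptors for the hormones known to act on *S100g* were called in several types. *Esr1* was higher in G (3.06, adjusted p = 3.21e-06), L (3.02, adjusted p = 1.48e-06) and S (2.47, adjusted p = 5.98e-06, edgeR), and *Vdr*, the vitamin D receptor, in T (4.73, adjusted p = 1.50e-04) and L (3.32, adjusted p = 6.10e-04, edgeR). *Pgr* was higher in G (4.76, adjusted p = 2.78e-04, edgeR). In L *Vdr* and *Esr1* were the partner genes called higher, 2 of 22 (6.3% of all genes were), and *Capzb* (-0.77) was lower. *Vsnl1* (4.97), *Calml4* (-3.08), *Rcn3* (2.65) and *Sparc* (-2.01) led the EF-hand genes of L. In S *Atp2b4* (1.40) and *Anxa2* (1.39) were the other partner genes called, and *Cabp2* (6.04), *Vsnl1* (5.12), *Necab2* (4.47) and *Necab3* (4.16) led the EF-hand genes. Of these, *Necab2* had a larger value in G (5.77), where it was also called. *Pgr* and *Necab3* had 0 UMIs in both Le and EC, *Necab2* in EC and T, *Vdr* and *Vsnl1* in EC, and *Cabp2* in G. The fitted values of these genes are therefore no measure of the fold.

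The sexes differed in related genes as well. In L, where 16.5% of all genes were called, 1 partner gene was higher and 3 lower in males of 18 tested, and 1 EF-hand gene was higher and 9 lower of 19. The split into higher and lower depends on the scaling in L, as given for *S100a11*. The partner genes were *Anxa6* (-1.97), *Anxa2* (1.96), *Anxa5* (-1.50) and *Hspa8* (-0.52). Of the EF-hand genes, *Pvalb* (-5.71, adjusted p = 1.11e-15), *Rcn3* (-3.14, adjusted p = 1.37e-20) and *Rcn1* (-3.09, adjusted p = 2.94e-17), the last 2 encoding reticulocalbins of the endoplasmic reticulum, were lower in males, and *Vsnl1* (3.27, adjusted p = 6.39e-12, edgeR) was higher. *Esr1* did not pass (0.05, SE 0.19, adjusted p = 0.874), nor did *Vdr* (0.67, SE 0.39, adjusted p = 0.199) or *Pgr* (-1.53, SE 0.43, adjusted p = 0.00496, edgeR).

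In S, where 11.5% of all genes were called between the sexes, 1 partner gene was higher in males and 4 lower of 19. Of 25 EF-hand genes, 8 were higher in male S and 2 lower. *Pgr* (-2.31, adjusted p = 3.35e-10, edgeR), *Anxa2* (0.62), *Anxa6* (-0.39) and *Atp2b1* (-0.32) led the partner genes. *Cabp1* (2.69), encoding a calcium-binding protein related to calmodulin, *Pvalb* (-2.44, adjusted p = 7.85e-20, edgeR), *Calb1* (2.17), a calbindin gene, and *Cabp2* (1.34) led the EF-hand genes. In G, where 4.36% of all genes were called, *Pgr* was lower in males (-2.98, adjusted p = 4.92e-06, edgeR) and *Anxa2* higher (1.42), 2 of 15 partner genes. Of 20 EF-hand genes *Sri* (1.19) was higher in male G, and *Pvalb*, with 726 female and 0 male UMIs, and *Hpca*, with 174 and 0, were lower. In FSC 2 of 22 partner genes, *Hspa8* (-0.50) and *Anxa6* (-0.38), and 4 of 21 EF-hand genes, *Efhd1* (-1.27), *Sparc* (-0.69), *Sri* (-0.50) and *Calm2* (-0.25), were lower in males and none higher. Of all genes, 2.92% were called between the sexes in FSC.

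The genes with profiles most like a member were found by Pearson's r of log2(CPM + 1) over the 16 sums of 8 types and 2 sexes, among 13626 genes, and are given as a description. For *S100b* they were *Fibin* (r = 0.983), *Cryab* (0.973) and *Nwd1* (0.972). For *S100a13* they were led by *Plscr4* (0.974), for *S100a4* by *Tmem173* (0.963), for *S100a11* by *Frem1* (0.952), for *S100a6* by *Acy3* (0.949), for *S100a1* by *Slit2* (0.940), for *S100a10* by *Dgka* (0.935) and for *S100g* by LOC691712 (0.827). The 16 sums share libraries, so these values are not independent. They came from cells typed with *S100b* among the FSC genes, so the values for *S100b* are not independent of that typing.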

How the data were processed

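Dispersed cells were captured on the 10x Genomics Chromium instrument, and the authors deposited 1 matrix of UMI counts of 30058 genes in 7861 cells, made with Cell Ranger 2.1 per the submitters' processing notes, against the NCBI Rnor6 rat reference with the 3′ ends of its genes lengthened and with reads evened out between lanes. The counts were used as deposited. Cells were filtered and typed by the study's marker rules, rebuilt here with scanpy 1.11.5, numpy 2.4.6 and scikit-learn 1.9.0: depth and mitochondrial outliers (1.5% of each tail, 2 SD) and doublets (synthetic doublets, adjusted p 0.01) were left out, and a gene was expressed above its Otsu threshold. UMIs were summed per type and sex (16 sums of 8 types, E left out) or per lane, and tested with edgeR 4.0.16 (R 4.3.3), with TMM scaling, filterByExpr at a minimum count of 10, and a Benjamini-Hochberg adjusted p limit of 0.001. DESeq2 1.42.0 was an alternative. Intervals are exact at 95%, and cells were thinned to 2000 UMIs where depth differed. A count of 0 was set at 3 counts only for bounds, and stayed 0 in tests, CPM and shares. Scripts were tested on simulated counts. Rebuilt cell types may differ from the study's. The 8 members are all named, together with lists of other S100, partner and EF-hand genes, from each of which up to 4 called genes with the highest absolute log2 fold change were named per contrast, beside each member's known partner; members and lists were chosen with earlier results of these data known. Pericytes, cells typed as melanotrophs and those of the posterior lobe entered no comparison and were not filtered for depth, mitochondrial share or doublets. For *S100b*, posterior cells were picked without it (39 cells against 59), so some could enter its comparisons. Lanes are not separate animals: the 2 lanes of a sex share 1 pool of 4 pituitaries.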

Additional observations from a re-analysis of the deposited data

Results flagged for a closer look

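The sex difference of 3 members in L differed from that in another type by an interaction contrast in edgeR's quasi-likelihood fit, with Benjamini-Hochberg adjustment. For *S100a10* the log2 difference was -1.43 against FSC, -1.64 against C and -1.78 against S. For *S100a1* it was 1.605 against FSC and 1.39 against S, and for *S100a11* -0.93 against S. *S100a1* was not called against FSC without the female lane with 1861 cells (1.20) or the male lane with 2047 cells (1.29), nor against S without either of these (1.08 and 1.10) or the female lane with 1868 cells (1.89). Scaling by library size alone ended the calls of *S100a10* against C (-1.06, adjusted p = 0.00281) and of *S100a11* against S (-0.34, adjusted p = 0.0355). With cells thinned to 2000 UMIs, *S100a1* was not called against FSC (0.99, adjusted p = 0.295) or S (0.86, adjusted p = 0.538, edgeR). Nor were *S100a10* against C (-2.30, adjusted p = 0.0013) and *S100a11* against S (-0.56, adjusted p = 0.212, edgeR). The calls of *S100a10* against FSC and S remained.

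Cells taken out as posterior pituitary cells entered no comparison, except that some could enter those of *S100b*, typed without it. Unlike the L, these cells had not been filtered for depth, mitochondrial share or doublets. In them *S100g* was at 256 CPM in males, above the 10.7 CPM of male L. Its 156 UMIs came from 18 of 55 male cells, and the 4 female cells had 2 UMIs. Of these cells 42, all male, had a UMI of *Nkx2-1* or *Lhx2*, transcription factor genes of the neural lobe, and 18 of the 42 had *S100g* (42.9%, 326 CPM). The same 42 cells had *S100a11* in 5 cells and *S100a6* in 6, whereas the other 17 had *S100a11* in 14 and *S100a6* in 13. Since *S100b* was among the genes that picked these cells, its 837 CPM in the male cells is no finding. The sexes cannot be compared here, with 55 cells against 4.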

How the results depend on the processing

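No paired analysis was possible because the lanes of the matrix carry no replicate number. The count of members called higher between cell types, 15, stayed within 1.5 times under each alternative tried and was 15 to 16 with each lane left out in turn. *S100b* in FSC ranged from 7.04 to 7.93 with a lane left out, and *S100g* between the sexes in L from -8.69 to -6.71. Calls between the sexes numbered 10, 9 to 12 with a lane left out, and 3 with cells thinned to 2000 UMIs, which also left fewer genes to test; interaction calls numbered 6, 4 to 6 with a lane left out, and 2 with thinned cells. *S100a11* between the sexes in L reversed to 0.13 with library size alone, was not called under DESeq2, thinned cells, one fit over all types, or outliers and doublets kept, and was lost without the female lane with 1868 cells or the male lane with 2047 cells; the cause was not tested. *S100g* in FSC against the other types (-3.34) was lost under DESeq2 (-2.23), under rules without *S100b* and without the female lane with 1868 cells. Shares of FSC expressing a gene rest on the threshold. At a minimum of 1 UMI and in thinned cells they were 91.4% and 77.3% for *S100b*, 95.3% and 69.0% for *S100a1*, 83.8% and 59.7% for *S100a6*, 89.7% and 55.4% for *S100a10*, 98.7% and 87.2% for *S100a11*, and 87.7% and 49.96% for *S100a13*. *S100a4* in Le was 7.26% in thinned cells, and *S100g* in L 37.3% at 1 UMI. The main set of values under the alternatives held the counts of calls, *S100b* in FSC and *S100g* between the sexes in L. It also held each member's share in FSC, or in Le for *S100a4* and in L for *S100g*. Of that set, 71 kept their call, interval or count within 1.5 times, and 16 moved. Of the other values for single genes, 543 kept their call or stayed within their interval. A further 55 kept the direction and lost the call, 86 shares moved beyond their interval, and 1 value reversed. For shares, 1 setting asked fewer marker genes of C, which left 2316 FSC, 551 Le, 133 EC and 361 E as before. Shares in these types could hardly move there, yet count as kept. For *S100b* shares, that setting and the one with outliers and doublets kept used typing with it. T and EC held the fewest cells, 88 and 133, so small differences there were not detectable.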

Other observations

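Pericytes, of which 51 cells were taken out, expressed *S100a10* and *S100a11* in 84.3% of cells each and *S100a6* in 82.4%. *S100a6* was at 1469, 1558, 1643 and 1899 CPM in pericytes of the 4 lanes, above the FSC of each lane, although the lanes held few of these cells. Of 60 melanotrophs, 26.7% expressed *S100a1* and 15.0% *S100b*, the latter at 26.3, 35.6, 59.8 and 176 CPM in the 4 lanes. Unlike the FSC, these pericytes and melanotrophs had not been filtered for depth, mitochondrial share or doublets. No explanation was weighed for any of these values.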
